A study of Mus musculus with 5 samples.

Results

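Glycolysis and the pentose phosphate pathway were followed through 35 genes in single-cell libraries of mouse bone marrow (BM) taken before and after cyclophosphamide (CTX), a DNA-alkylating chemotherapy drug. The genes were chosen by symbol as enzymes and transporters of these pathways, with earlier results of these data known, and they took 36 of the 31053 rows of the count matrices because Aldoa is listed under 2 identifiers. All 36 rows held at least 1 UMI in 4 libraries, and 35 did in the fifth. The samples were naive BM, BM at day 2 after 150 mg/kg CTX (D2 CTX), BM at day 7 after the same dose (D7 CTX), and sorted CD11b+Ly6Chi monocytes from naive and from CTX-treated BM. All mice were BALB/c of 4 to 8 weeks, untreated or given CTX by intraperitoneal injection. For the marrow libraries, equal cell numbers of 3 mice per condition were mixed after dead cells were depleted. Whether the sorted libraries were pooled in the same way is not clear from the labels. The marrow libraries are labelled as CD45+ mononuclear cells, yet they held neutrophils (1250 gated as mature in naive BM) and cells rich in hemoglobin (405 gated as erythroid). The labels give no day for the sorted CTX cells, which the study's description places at the later marrow time point. Each condition was 1 library, so no comparison below has a replicate check and none carries a test. Intervals are exact 95% intervals that cover counting error only.

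Glycolysis splits glucose into pyruvate with a net yield of ATP, and most of its steps are carried out by families of isozymes that differ between tissues. The oxidative branch of the pentose phosphate pathway draws on the first product of hexokinase to make NADPH, and the non-oxidative branch exchanges sugar phosphates between ribose and glycolysis. Mature neutrophils have few mitochondria and live largely on glycolysis, and they use NADPH to fuel the oxidative burst. Dividing cells use ribose phosphate for nucleotides.

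After filtering, the libraries held 7104 of 7649 barcodes (naive BM), 6126 of 6608 (D2 CTX), 8290 of 8605 (D7 CTX), 1891 of 2223 (naive sorted) and 2564 of 2978 (CTX sorted). The kept UMIs per library ran from 22279758 to 67921924. The median UMIs per cell differed, at 3953.5 in naive BM, 3033.5 at D2 and 7189.5 at D7 in marrow, and 10299 and 9694 in the naive and CTX sorted cells. Between 2 and 16 barcodes were shared by any pair of libraries. Cells were assigned to classes by gates on summed marker genes, so a class name below stands for its marker gate. In the sorted libraries 1840 of 1891 naive and 2446 of 2564 CTX cells passed the monocyte gate. The D7 mature neutrophil gate had the most cells near its limit, 12.5% of the library within 20% of it, and cells without a class held 24.1% of the D2 UMIs. Levels are given as UMIs per 1000000 (CPM), which for these 3′ tags is not divided by gene length. S100a8, an abundant neutrophil transcript, also differed outside the neutrophil gates, at 5388 CPM in naive pre-B cells and at 21047 CPM in D2 pre-B cells. Whether this was free RNA was not tested.

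The regulatory sequence at these genes is shown for 4 members whose isozyme or transporter choice recurs below. RefSeq (GRCm38.p6) held promoters for 34 of the 35 symbols, 48 in all, each 300 bases long with 250 before the start and 50 from it on. The capitals mark the core ACGTG of the hypoxia response element on either strand, which is also part of the E-box CACGTG and occurs as its reverse complement CACGT.
Hk2, chr6:82774405-82774704, minus strand, 2 cores: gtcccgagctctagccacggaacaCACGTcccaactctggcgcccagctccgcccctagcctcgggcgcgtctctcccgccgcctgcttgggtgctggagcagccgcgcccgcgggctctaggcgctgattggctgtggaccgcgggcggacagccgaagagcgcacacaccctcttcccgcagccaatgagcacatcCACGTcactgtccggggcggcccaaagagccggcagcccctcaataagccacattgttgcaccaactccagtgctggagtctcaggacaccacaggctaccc
Hk3, chr13:55021336-55021635, minus strand, 1 core: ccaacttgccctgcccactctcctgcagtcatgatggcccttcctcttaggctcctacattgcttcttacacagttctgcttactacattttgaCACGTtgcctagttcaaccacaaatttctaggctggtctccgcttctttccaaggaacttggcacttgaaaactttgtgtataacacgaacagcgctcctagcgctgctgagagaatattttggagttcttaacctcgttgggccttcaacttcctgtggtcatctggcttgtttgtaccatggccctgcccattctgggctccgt
Ldha, chr7:46845554-46845853, plus strand, 5 cores: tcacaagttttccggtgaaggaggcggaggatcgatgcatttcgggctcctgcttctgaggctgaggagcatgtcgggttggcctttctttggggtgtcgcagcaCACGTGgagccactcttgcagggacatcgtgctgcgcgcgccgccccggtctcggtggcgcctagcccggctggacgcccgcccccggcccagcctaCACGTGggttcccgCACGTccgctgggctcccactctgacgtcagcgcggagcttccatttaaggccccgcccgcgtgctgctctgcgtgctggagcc
Slc16a3, chr11:120948817-120949116, plus strand, 2 cores: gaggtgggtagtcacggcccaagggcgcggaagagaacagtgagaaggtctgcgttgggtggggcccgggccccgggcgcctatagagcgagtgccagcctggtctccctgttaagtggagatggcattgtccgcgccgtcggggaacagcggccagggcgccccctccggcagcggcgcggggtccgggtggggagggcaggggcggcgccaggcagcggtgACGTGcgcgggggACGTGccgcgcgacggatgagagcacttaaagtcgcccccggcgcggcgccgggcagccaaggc
The core was found in 20 of the 48 member promoters (41.7%) and in 19.6% of all 32851 promoters. The GC box GGGCGG was found in 62.5% of member promoters and 35.7% of all. The C/EBP-type pattern TTNNGNAA was found in 41.7% and 40.7%, the PU.1-type GAGGAAGT in 2.08% and 3.20%, and TATAAA in 2.08% and 13.6%, all on both strands. The core counts printed with the windows were made per strand, so an E-box was counted on both strands. The count for Ldha is thus higher than its number of separate capital stretches. A match of letters is a description of the window and not a bound site.

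Across whole libraries the 35 genes together made up 0.551% of UMIs in naive BM, 0.578% at D2 and 0.743% at D7. Their summed level was 5507 CPM (5486 to 5529) in naive BM, 5779 CPM (5753 to 5805) at D2 and 7432 CPM (7412 to 7453) at D7. The log2 ratio to naive BM was 0.07 at D2, and it was -0.10 when scaled by the median of gene ratios and -0.021 on the mean of the cells' CPM. At D7 it was 0.43, and it ran from 0.18 with the naive mix of classes to 1.03 under median scaling. In the sorted monocytes it was 7010 CPM (6976 to 7045) before CTX and 7524 CPM (7492 to 7556) after. The highest single gene in every library was Gapdh, with 1082, 894, 1483, 1217 and 1473 CPM in the order naive BM, D2, D7, naive sorted and CTX sorted. Pseudogene copies of Gapdh, Aldoa, Eno1, Pgam1, Pgk1 and Ldha are near-identical in sequence, so their reads may have been divided among loci or dropped.

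The summed level spread further between cell classes than between libraries. In naive BM the neutrophil classes ran from 6626 CPM in cycling preNeu/proNeu cells to 7421 in immature and 7407 in mature neutrophils. GMP, the granulocyte and monocyte progenitors, held 7042 CPM, basophils and mast cells 6647 and monocytes 5963. Cycling B cells held 5880 CPM and non-cycling pre-B cells 4666. The lowest naive sums were those of later B cells (2645 CPM), T cells (2604) and erythroid cells (2481). From naive BM to D2 and D7 the sum in mature neutrophils was 7407, 7996 and 8547 CPM, and in monocytes 5963, 6069 and 6519 CPM. In naive BM and at D2, the GMP, neutrophil and monocyte classes stood above later B, T, NK and erythroid cells. The makeup of the libraries differed too: naive BM held 405 erythroid cells and 536 cycling B cells, against 71 and 12 at D2 and 17 and 95 at D7.

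**Figure D1:**
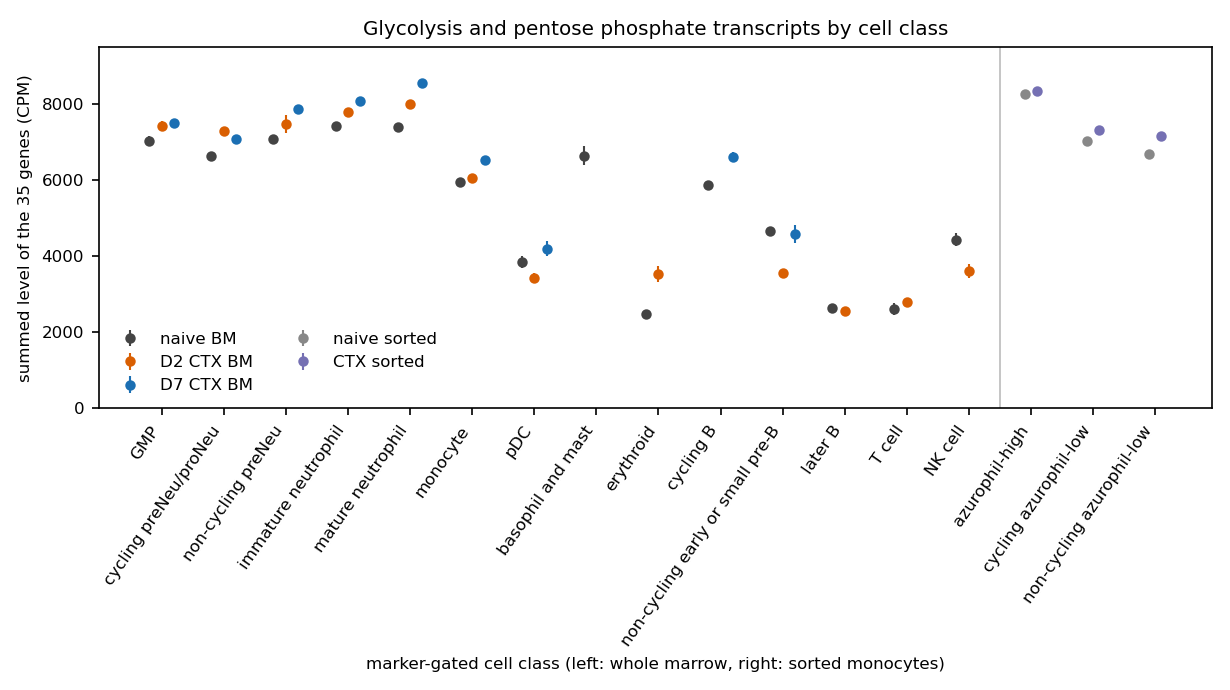
Summed level of the 35 genes (CPM, vertical axis) in each marker-gated class, one point per library with its exact 95% counting interval. Neutrophil classes lie between 6626 and 8547 CPM, above erythroid cells at 2481 in naive BM.

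The transcripts of the glucose transporters differed between cell types. Slc2a3 encodes the high-affinity transporter GLUT3 (chr6:122727809-122801640, minus strand, mm10). It stood at 68.1 CPM in naive BM, 145 at D2 and 103 at D7, and at 3.77 and 3.98 over all naive and CTX sorted cells. Slc2a1 (GLUT1) was lower in marrow, at 6.12, 13.3 and 7.61 CPM, and was at 13.1 and 14.5 CPM in the sorted cells. Within classes of naive BM, Slc2a3 was at 389 CPM in mature neutrophils and at 10.0 in monocytes. A UMI of Slc2a3 was seen in 57.8% of naive mature neutrophils, 65.0% at D2 and 69.4% at D7, at median depths of 2449, 2463 and 4317 UMIs. In pre-B cells, taken as the background, the shares were 4.57%, 11.3% and 6.25%, at median depths of 2528, 2471 and 2388. The 2 transporters were counted nearly equally in monocytes, where Slc2a1 gave 50.5% of their joint UMIs in naive BM (39.9% to 61.2%), 47.1% at D2 and 56.8% at D7. Over all naive and CTX sorted cells Slc2a1 gave 77.7% and 78.4%. These shares are not of monocytes alone. In the CTX library a Slc2a3 UMI was seen in 33 of 58 sorted cells rich in specific granule genes. It was seen in 17 of 1519 non-cycling sorted cells low in azurophil granule genes.

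The hexokinases trap glucose in the cell, and the leading isozyme differed between several cell classes. Hk3, a myeloid hexokinase, gave 70.5% (66.8 to 74.1) of hexokinase UMIs in naive mature neutrophils, 72.2% at D2 and 68.8% at D7. Hk2 led in naive monocytes with 59.4% (55.1 to 63.6) and in naive basophils and mast cells with 74.1% (65.0 to 81.9). Hk1, the housekeeping form, gave 93.1% (90.5 to 95.2) in naive erythroid cells and 57.6% (51.3 to 63.8) in naive B-lineage cells. The monocyte mix differed at D2, with Hk2 at 39.2% (34.5 to 44.0) and Hk3 at 37.1% (32.5 to 41.8), and at D7 the shares were 60.9% Hk2 and 21.2% Hk3. S100a8 in monocytes stood at 2829 CPM in naive BM, 4609 at D2 and 4722 at D7, and the part of free neutrophil RNA in the D2 mix was not tested. Erythroid cells at D2 showed 21.1% Hk3 in 38 UMIs, beside S100a8 at 27710 CPM in the same cells against 3170 in naive erythroid cells. The part of free neutrophil RNA in that share was not tested.

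**Figure D2:**
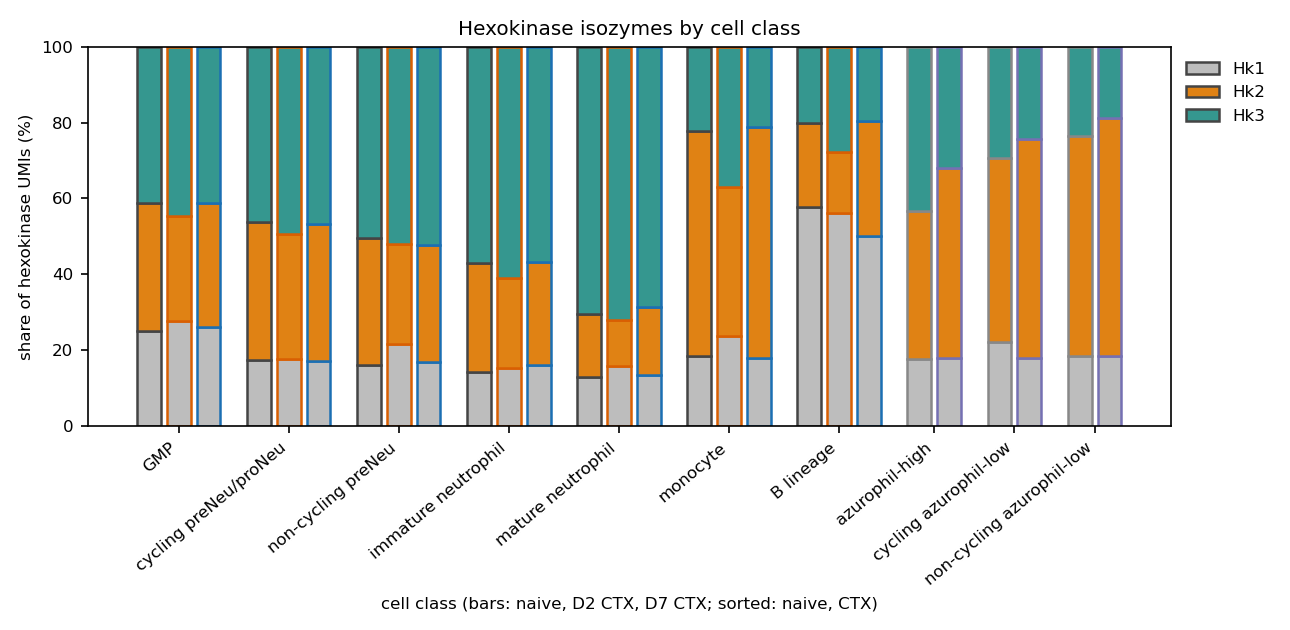
Share of hexokinase UMIs (percent, stacked bars) given by Hk1, Hk2 and Hk3 in each class and library, with bars edged by library. Hk3 makes up 68.8% to 72.2% in mature neutrophils, and Hk2 59.4%, 39.2% and 60.9% in monocytes of naive, D2 and D7 marrow.

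In the upper steps of glycolysis, Gpi1 (glucose-6-phosphate isomerase) was at 318, 422 and 633 CPM in naive, D2 and D7 BM, and Aldoa (aldolase A) at 268, 310 and 470. Tpi1 (triosephosphate isomerase) was nearly level across the marrow libraries at 116, 115.5 and 103.5 CPM. Of the phosphofructokinases, Pfkp gave 68.7% of the family's UMIs in naive monocytes, 76.4% at D2 and 63.0% at D7, while Pfkm, the muscle form, gave 70.9% (66.0 to 75.4) in naive erythroid cells and 2.59% in naive monocytes. Pfkl, the liver form, gave 40.1% in naive B-lineage cells. Aldoc (aldolase C), the brain form, was at no more than 4.85 CPM in monocytes and 3.39 CPM in the neutrophil classes of any marrow library. Pfkfb3 and Pfkfb4 set the level of fructose 2,6-bisphosphate, which activates phosphofructokinase. In naive BM, Pfkfb3 was highest in pre-B cells, at 38.7 CPM, and Pfkfb4 in mature neutrophils, at 121 CPM.

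The lower steps carried the largest part of the sum, 1986, 2122 and 2874 CPM in naive, D2 and D7 BM and 3258 and 3593 in naive and CTX sorted monocytes. Pkm (pyruvate kinase) was at 355, 463 and 654 CPM in marrow and at 819 and 872.5 in the sorted cells. Eno1 (enolase 1) was at 93.1, 172 and 133 CPM in marrow and at 461 and 468 in the sorted cells. Pgk1, the first ATP-making step, and Pgam1, phosphoglycerate mutase, were at 200 and 237 CPM in naive BM, 273 and 302 at D2, and 256 and 342 at D7. Bpgm, which makes the oxygen-releasing 2,3-bisphosphoglycerate of red cells, was at 50.6 CPM in naive erythroid cells and at 1.29 in naive mature neutrophils. Eno3, the muscle enolase, was at no more than 4.6 CPM in any whole library.

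The genes of lactate handling also differed between classes. Ldha, the form that favours lactate, was at 284, 326 and 323 CPM in naive, D2 and D7 BM. Ldhb gave 21.8% of lactate dehydrogenase UMIs in naive monocytes, 11.8% at D2 and 23.7% at D7, against 1.91%, 0.80% and 0.76% in mature neutrophils. The lactate exporter Slc16a3 (MCT4) was at 193 CPM in naive mature neutrophils and 23.1 in naive monocytes. The transporter Slc16a1 (MCT1) was at 197 CPM in naive erythroid cells, 152 in cycling B cells and 1.29 in mature neutrophils. Slc16a1 gave 98.2% of their joint UMIs in naive erythroid cells and 0.67% in naive mature neutrophils. At the mitochondrial entry, Pdha1, a subunit of pyruvate dehydrogenase, was at 64.8, 68.1 and 50.03 CPM in marrow, and its inhibitory kinases Pdk1 and Pdk3 were at 9.9 and 24.4 CPM in naive BM.

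In the pentose phosphate pathway, the NADPH-making enzymes G6pdx and Pgd were at 70.2 and 168 CPM in naive BM, 104.5 and 231 at D2, and 94.8 and 275 at D7. The non-oxidative branch was led by Taldo1 (transaldolase), at 549, 521 and 821 CPM, and Tkt (transketolase), at 459, 479 and 880 CPM. Taldo1 was the highest of the 35 genes in naive mature neutrophils, at 1464 CPM, above Gapdh at 1331. Rpia, which makes ribose 5-phosphate, and Rpe, its companion epimerase, were at 84.9 and 37.6 CPM in naive BM.

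Pgls, the second enzyme of the oxidative branch (chr8:71592176-71601092, plus strand, mm10), carried a limit of annotation. It overlaps Fam129c (chr8:71597648-71607936) on the same strand, and 4 of the 8 exons of 1 of its transcripts lie inside that gene. That transcript is annotated as a nonsense-mediated decay form. The protein-coding transcripts of Pgls have 0 exons inside Fam129c and end at or before 71596269. Pgls was at 1996 CPM in naive cycling B cells and 1997 in naive pre-B cells, where Fam129c was at 194 and 821 CPM. It was at 1190 CPM in plasmacytoid dendritic cells with Fam129c at 16.9, at 372 CPM in monocytes with 6.67, and at 97.5 CPM in mature neutrophils with 3.87. Reads of the 2 genes in the shared stretch cannot be told apart. In naive BM, Pgls alone made 664 of the 902 CPM of the oxidative branch. Pfkm also overlaps a gene on its own strand, and 12 members overlap one on the opposite strand.

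Along neutrophil maturation, from cycling preNeu/proNeu through non-cycling preNeu and immature to mature neutrophils, some members climbed and others declined in all 3 marrow libraries. Of the 27 members with at least 200 UMIs in each library, 6 rose in level at every step of the 4 classes in each library, namely Slc2a3, Pfkfb4, Pkm, Slc16a3, Pgd and Taldo1. The 4 that declined at every step were Gpi1, Tpi1, Pgls and Rpia. The share of all genes with such orders is not given, so these counts are no result about the members. These orders are of point values, and some steps lie within counting error, such as Pfkfb4 from 40.2 to 40.3 CPM and Rpia from 16.2 to 16.1 CPM in naive BM. The D2 non-cycling preNeu class was shallow, with 1 UMI worth 1.91 CPM there against 0.199 in naive BM. The D2 steps into and out of that class thus rest on fewer counts. Slc2a3 in naive BM went from 43.2 to 102, 261 and 389 CPM, at D2 from 99.4 to 202, 345 and 517, and at D7 from 50.8 to 112, 226 and 310. Slc16a3 went from 29.6 to 38.0, 79.8 and 193 CPM in naive BM, from 42.3 to 70.6, 149 and 385 at D2, and from 32.5 to 46.3, 92.8 and 150 at D7. In both transporters the first class was the lowest and the last the highest.

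Pgd went from 215 to 285, 399 and 524.5 CPM in naive BM, and Taldo1 from 607 to 615, 781 and 1464. Rpia went the other way, from 126 to 38.7, 16.2 and 16.1 CPM in naive BM, from 52.8 to 21.0, 16.1 and 14.0 at D2, and from 97.7 to 34.4, 19.5 and 15.4 at D7. Tpi1 went from 123 to 74.7, 37.1 and 35.2 CPM in naive BM. Other members peaked in between. Tkt was highest in the non-cycling preNeu cells, at 920.5 CPM in naive BM, 983 at D2 and 1137 at D7, and G6pdx in immature neutrophils, at 199, 277 and 139.6 CPM. Hk3 stood at 83.4, 108, 143 and 139 CPM across the naive series, and GMP held 46.1.

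**Figure D3:**
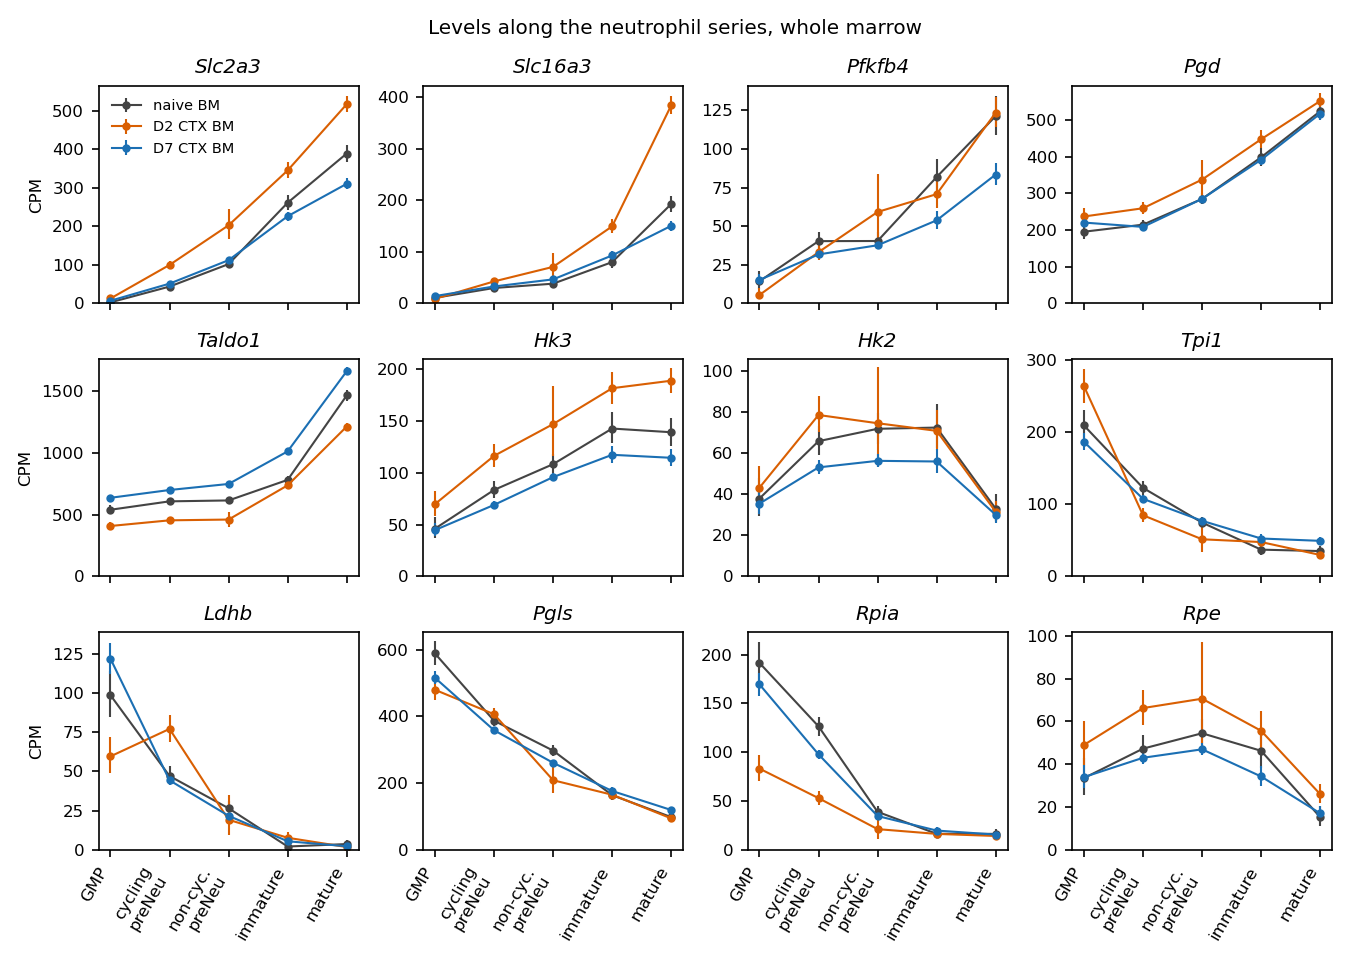
Level (CPM) of 12 members across GMP, cycling preNeu/proNeu, non-cycling preNeu, immature and mature neutrophils, with one line per marrow library and exact 95% counting intervals. Slc2a3 and Slc16a3 climb to 389 and 193 CPM in naive mature neutrophils, and Rpia declines from 126 CPM in naive cycling cells to 16.1.

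Mature neutrophils were set against cycling preNeu/proNeu cells within each library. A gene was counted in a comparison with at least 200 UMIs over both sides and at least 20 CPM on one, and it was called past a log2 ratio of 1 on CPM with 1 added. In naive BM 5 of 25 members were higher past that limit, with 25.4% of all genes, and 6 were lower, with 29.6% of all genes. At D2 6 of 26 were higher (all genes 27.6%) and 6 lower (20.7%), and at D7 5 of 25 were higher (22.6%) and 6 lower (28.2%). The shares of members lie near or under those of all genes. The members' median log2 ratio was -0.30 in naive BM, -0.12 at D2 and -0.16 at D7, against -0.004, 0.25 and -0.05 over all genes. In all 3 libraries the higher ones included Slc2a3, Slc16a3, Pfkfb4, Pgd and Taldo1, and the lower ones Tpi1, Ldhb, Pgls, Rpia and Rpe. Pfkp was the sixth higher member at D2, Hk2 the sixth lower at D2, and Pdk3 the sixth lower in naive BM and at D7.

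Slc2a3 had a log2 ratio of 3.17 (2.96 to 3.38) in naive BM, 2.38 (2.23 to 2.53) at D2 and 2.61 (2.49 to 2.72) at D7. Slc16a3 had 2.70, 3.18 and 2.21. The lowest ratios were those of Ldhb, at -3.73, -5.57 and -4.36, from 47.1 to 3.55 CPM in naive BM. The gates fix the difference in cycling between these classes.

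The D2 comparison asks how the marrow stood early after CTX. Among members that passed the filter, lactate and glucose transporters differed most: Slc16a3 from 29.8 to 87.1 CPM (log2 ratio 1.55, 1.45 to 1.64), Slc2a3 from 68.1 to 145 CPM (1.09, 1.02 to 1.15) and Slc16a1 from 59.1 to 19.0 CPM (-1.64, -1.77 to -1.51). These were 2 members higher past 1, beside 5.4% of all 6221 genes, and 1 lower, beside 3.21%, among 28 members that passed the filter. Eno1 had a log2 ratio of 0.89, Pfkp 0.84, Hk3 0.74 (0.65 to 0.82), Pfkl 0.60, G6pdx 0.57 and Rpe 0.48. Pgls (-0.87), Rpia (-0.83) and Gapdh (-0.28, -0.30 to -0.25) were lower. Of the 28, 22 lay above 0, beside 63.0% of all genes, and their median was 0.33, against 0.17 over all genes. Hk2, Pdha1, Pdk3 and Tkt lay above 0 but below the median of all genes, so that scaling by that median turns their direction. Under that scaling 1 member was higher past 1 and 2 were lower, and the share of all genes under it is not given. Members under the filter included Slc2a1 at 1.11 and Pfkm at -1.18.

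Within classes, calls are given for cycling preNeu/proNeu cells, mature neutrophils, monocytes and pre-B cells, each with at least 200 cells in both libraries. The whole B-lineage gate is not described by calls because it held 536 cycling B cells in naive BM and 12 at D2. Gates with fewer than 200 cells in at least 1 library also had members past 1, such as Rpia in GMP (from 191 to 83.1 CPM), Eno1 in T cells (72.8 to 249.5), Gapdh in NK cells (1173 to 535) and Gpi1 in erythroid cells (50.2 to 172). In cycling preNeu/proNeu cells 1 of 25 was higher past 1 (all genes 5.45%) and 1 lower (1.39%). They were Slc2a3, from 43.2 to 99.4 CPM (1.203, 0.96 to 1.45), and Rpia, from 126 to 52.8 CPM (-1.26, -1.49 to -1.03). Slc2a3 was also higher at D2 outside the neutrophil classes, from 12.2 to 118 CPM in erythroid and from 20.5 to 65.9 CPM in pre-B cells. S100a8 was 170927 CPM in naive and 160366 CPM in D2 cycling preNeu/proNeu cells, and the part of free RNA in the Slc2a3 difference was not tested. G6pdx (0.73), Ldhb (0.71), Eno1 (0.63) and Pdha1 (0.57) were the next highest there. The members' median in that class was 0.29, against 0.18 over all genes.

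In mature neutrophils at D2, 0 of 22 passed 1 in either direction on CPM with 1 added, beside 3.7% of genes higher and 0.34% lower. Slc16a3 was the nearest to the limit, from 193 to 385 CPM (0.997, 0.86 to 1.13), with Eno1 from 110 to 217 CPM (0.98, 0.81 to 1.17) and Pfkp from 16.1 to 31.4 CPM (0.96, 0.49 to 1.45). G6pdx had 0.78, Hk1 0.72, Hk3 0.44, Slc2a3 0.41 and Tkt 0.40. Gapdh was lower, from 1331 to 1035 CPM (-0.36). The members' median of 0.25 was below the 0.35 of all genes in that class. Of 17 members above 0, 7 lay below that median and would turn under scaling by it. A UMI of Slc16a3 was seen in 36.4% of naive mature neutrophils, 57.8% at D2 and 44.9% at D7, against 1.56% and 8.18% in naive and D2 pre-B cells.

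In monocytes at D2, 0 of 22 members passed 1, beside 2.65% of genes higher and 1.13% lower. Hk3 was at 50.6 against 26.2 CPM (0.95, 0.59 to 1.30), beside S100a8 at 4609 against 2829 CPM in the same gate. Hk3 was also higher in D2 erythroid cells, at 24.1 against 3.36 CPM, and the part of free neutrophil RNA in the monocyte difference was not tested. Rpe was at 69.3 against 40.9 (0.76), Pfkp at 85.2 against 53.1 (0.68), Eno1 at 209 against 133 (0.66) and Ldha at 323 against 224 (0.53). Rpia (-0.68), Taldo1 (-0.63, from 779 to 505 CPM), Ldhb (-0.53) and Hk2 (-0.39) were lower. The median was 0.14, against 0.05 over all genes, and the gate held 587 naive and 227 D2 cells.

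In pre-B cells at D2, 1 of 19 members was higher past 1 (all genes 3.74%) and 1 lower (1.45%). Slc2a3 went from 20.5 to 65.9 CPM (1.68, 1.27 to 2.11), and S100a8 went from 5388 to 21047 CPM in the same gates. The part of free neutrophil RNA in the Slc2a3 difference was not tested. Pgls went from 1997 to 784 CPM (-1.35, -1.42 to -1.28), while Fam129c stood at 821 and 630 CPM. The members' sum in pre-B cells had a log2 ratio of -0.39 (-0.43 to -0.35), and it was 0.059 with Pgls left out, a choice made after seeing the data. Bpgm in erythroid cells went from 50.6 to 509 CPM, over 405 naive and 71 D2 cells with median UMIs of 13022 and 2409, and the part of that depth gap was not tested.

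The D7 comparison asks how the marrow stood later, when the level of most genes, as a share of the total, was below that in naive BM. The median log2 ratio over 5608 genes was -0.58, and 20.01% of genes lay above 0. Against this, the 27 members that passed had a median of 0.45 and 19 lay above 0. Only Slc16a1 passed 1, with a log2 ratio of -3.10 (-3.25 to -2.96), from 59.1 to 6.88 CPM, beside 22.3% of all genes lower and 1.41% higher. Gpi1 was at the limit, from 318 to 633 CPM (0.995, 0.97 to 1.02). Tkt had 0.94 (459 to 880 CPM), Pkm 0.88 (355 to 654), Aldoa 0.81 (268 to 470), Slc16a3 0.76, Pgd 0.71, Hk3 0.71, Ldhb 0.71, Taldo1 0.58 and Gapdh 0.45. Pgls (-0.96), Hk1 (-0.48), Rpia (-0.47), Pdha1 (-0.37), Pdk3 (-0.34), Pfkp (-0.31) and Tpi1 (-0.16) were lower. Hk1, Pfkp, Tpi1, Pdha1, Pdk3 and Rpia lay above the median of all genes, so scaling by it turns their direction. Under that scaling 15 members were higher past 1 and 1 was lower. Such scaling adds the same amount to the ratio of every gene. The share of all genes past 1 under it is not given, so these counts are no result about the members. The erythroid and cycling B cells, in which Slc16a1 was highest in naive BM, were 405 and 536 cells in naive BM and 17 and 95 at D7. In the library sums alone, fewer cells of a type and less RNA per cell cannot be told apart. Within the cycling B gate, Slc16a1 was at 152 CPM in naive BM and 129 at D7 (-0.24, -0.47 to -0.016). Within the erythroid gate it was at 197 CPM in naive BM and 205 at D2 (0.05, -0.32 to 0.41). The part of the class mix in the Slc16a1 difference was not tested. With the classes of D7 weighted by the naive mix, the log2 ratio of the members' sum was 0.18, against 0.43 as measured.

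**Figure D4:**
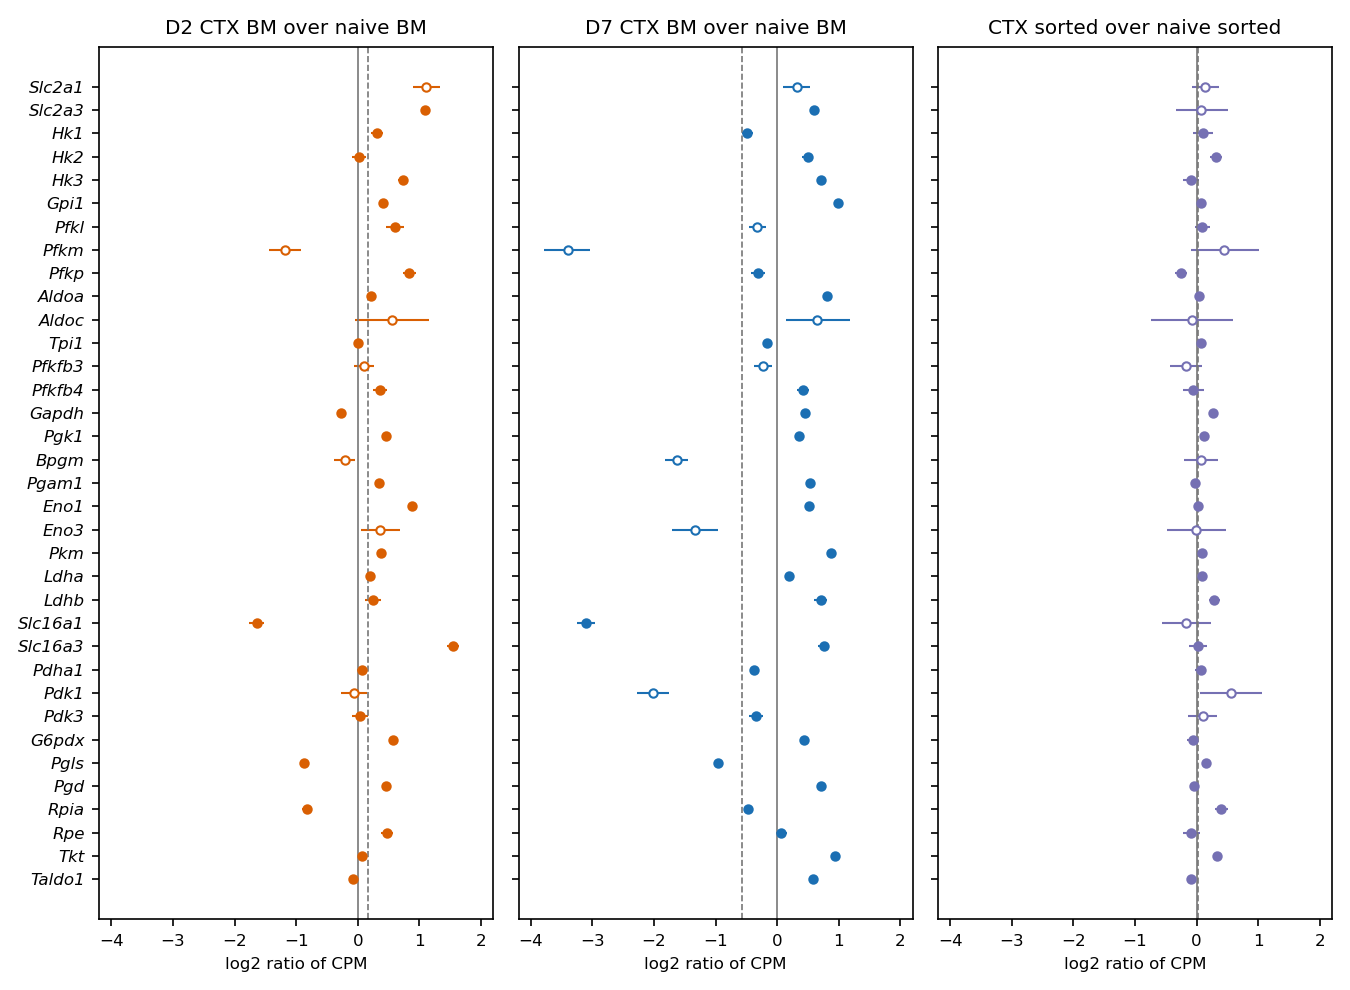
Log2 ratio of CPM for each of the 35 genes in D2 over naive BM, D7 over naive BM and CTX over naive sorted monocytes, with exact 95% counting intervals, filled points for genes that passed the filter and a dashed line at the median of all genes. The dashed lines lie at 0.17, -0.58 and 0.03, and Slc16a1 is the lowest passing member in both marrow panels.

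Within classes, calls at D7 are given for mature neutrophils and monocytes. In mature neutrophils 0 of 21 members passed 1, beside 0.651% of genes higher and 1.8% lower. Ldha was at 282 against 183 CPM (0.63, 0.49 to 0.76), Gpi1 at 593 against 432 (0.46), Pkm at 888 against 669 (0.41), Aldoa at 566 against 429 (0.40), and Gapdh and Tkt both had 0.33. Pfkfb4 (-0.54), Slc16a3 (-0.36), Slc2a3 (-0.33) and G6pdx (-0.31) were lower. The median was 0.18, against -0.13 over all genes, and median UMIs per cell in the gate were 4317 at D7 and 2449 in naive BM. In monocytes 0 of 25 passed 1, beside 0.378% of genes higher and 0.155% lower. Pfkl had 0.43 (0.08 to 0.80), Aldoa and Tkt 0.30 and Pgd 0.27, and Pgls had -0.24. Of the 25 members, 21 lay above 0, with a median of 0.11 against -0.07 over all genes. The share of all genes above 0 in that class is not given, so this count is no result about the members.

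The sorted monocytes ask the same of cells sorted as 1 type. Their mix of azurophil and cycling gates, given below, differed between the libraries. The part of that mix in the differences of single genes was not tested. Between CTX and naive cells 0 of 25 members passed 1, beside 0.144% of genes higher and 0.811% lower. Rpia was at 67.9 against 51.4 CPM (0.40, 0.30 to 0.51), Tkt at 512 against 407 (0.33, 0.29 to 0.37), Hk2 at 87.4 against 70.1 (0.32, 0.23 to 0.41), Ldhb at 88.7 against 72.8 (0.29) and Gapdh at 1473 against 1217 (0.28, 0.25 to 0.30). Pfkp was lower, at 61.3 against 73.0 CPM (-0.25, -0.35 to -0.15). The members' median was 0.07, against 0.03 over all genes, and 12 intervals lay above 0 and 2 below it. The share of all genes with such intervals is not given, so these counts are no result about the members. Eno1 and Slc16a3 lay between 0 and the median of all genes. Hk2 gave 52.1% (50.3 to 53.9) of hexokinase UMIs in naive and 57.7% (56.2 to 59.2) in CTX sorted cells, and Hk3 28.8% and 24.1%.

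The sorted cells were split by azurophil granule genes, which are made in early myeloid cells. The azurophil-high gate held 202 naive and 357 CTX cells, and the sum of the 35 genes there was 8272 and 8335 CPM. Non-cycling azurophil-low cells numbered 1257 and 1519 with sums of 6689 and 7160 CPM, and cycling azurophil-low cells 349 and 547 with sums of 7040 and 7311 CPM. Azurophil-high over non-cycling azurophil-low, 1 of 25 members was higher past 1 in naive cells (all genes 7.86%) and 1 lower (9.07%), and in CTX cells also 1 higher (8.57%) and 1 lower (7.68%). In both libraries the higher one was Rpia, at 84.3 against 34.6 CPM in naive cells (1.28, 1.07 to 1.497) and 98.5 against 41.7 in CTX cells (1.24, 1.07 to 1.41). The lower one was Pfkfb4, at 11.8 against 29.5 CPM (-1.32) and 9.71 against 31.0 (-1.68). The azurophil-high gate was not limited by cycling. In cycling over non-cycling azurophil-low cells, Rpia had 0.85 in naive and 0.98 in CTX cells, and Pfkfb4 -0.75 and -0.85. Azurophil-high over cycling azurophil-low, 0 of 24 members passed 1 in either library. Of all genes 0.478% were higher and 1.34% lower in naive cells, and 0.652% and 1.29% in CTX cells. The part of cycling in these differences was not tested.

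Gapdh was at 1729 against 1029 CPM in naive cells (0.75) and at 1846 against 1255 in CTX cells (0.56). Tkt (0.81 and 0.69), Hk3 (0.77 and 0.64) and Pgam1 (0.75 and 0.84) were also higher in azurophil-high cells of both libraries. Hk2 (-0.69 and -0.46), Taldo1 (-0.50 and -0.57) and Pgd (-0.35 and -0.42) were lower. The members' median was 0.23 in naive and 0.06 in CTX cells, against -0.02 and -0.06 over all genes. Median UMIs per cell were 19315.5 against 9433 in naive and 16564 against 8758 in CTX cells.

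**Figure D5:**
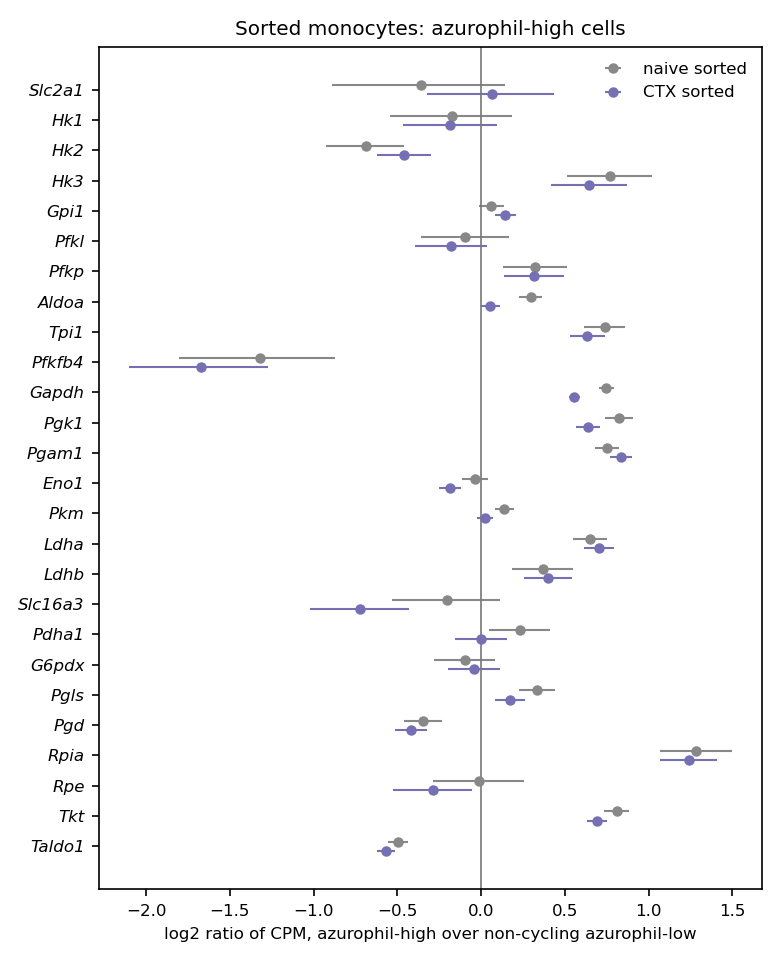
Log2 ratio of CPM in azurophil-high over non-cycling azurophil-low sorted cells for 26 members, naive and CTX libraries side by side, with exact 95% counting intervals. Rpia lies above 1 and Pfkfb4 below -1 in both libraries.

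Other genes around the pathway were counted from lists of neighbours. Shares of all genes above 0 are of ratios and not of intervals, and none is given for monocytes. At D2 in whole marrow, the NADPH oxidase list, whose enzyme uses the NADPH, had 0 of 6 genes past 1, with 3 intervals above 0 and 2 below. At D7 all 6 intervals lay above 0 with a median of 0.74, where 20.01% of all genes had a ratio above 0 and their median was -0.58. Ncf4, a cytosolic subunit, went from 325 to 708 CPM (1.12). In D2 monocytes 5 of the 6 intervals lay below 0 with a median of -0.39, among them Cyba, from 1489 to 1052.5 CPM (-0.50). Of the hypoxia list, 5 of 12 genes passed the filter at D2 in whole marrow and all 5 intervals lay above 0, where 63.0% of all genes had a ratio above 0 and their median was 0.17. Hif1a, the factor of that list, went from 37.0 to 94.5 CPM in whole marrow (1.35), from 52.3 to 167 in mature neutrophils (1.68) and from 51.6 to 107 in monocytes (1.05). The 3 genes of purine ribose supply, which use ribose 5-phosphate, all lay past 1 lower at D7 in whole marrow, beside 22.3% of all genes, with Prps1 at -1.39, Prps2 at -1.46 and Ppat at -1.37 on CPM with 1 added and a median of -0.58 over all genes. In D2 monocytes Prps2 was higher, from 19.1 to 46.1 CPM (1.27, 0.88 to 1.67). Of the glycogen and gluconeogenesis list, 6 of 11 genes passed at D2 and at D7 and all 6 intervals lay above 0 at each, with medians of 0.48 and 0.40. Of all genes 63.0% lay above 0 at D2 and 20.01% at D7, with medians of 0.17 and -0.58. Of the pyruvate entry list, 5 of 10 genes passed, with 0 intervals above 0 and 3 below at D2, and 1 above and 4 below at D7. Of the 6 other NADPH sources 5 passed, with 2 intervals above 0 and 1 below at D2, and 2 above and 3 below at D7, where Idh2 (-1.04) and Mthfd1 (-2.37) lay past 1 lower. None of the 14 isozymes and relatives of the members passed the filter in the marrow libraries as a whole. In sorted monocytes none of these lists had a gene past 1.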

How the data were processed

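Single cells were captured with a 10x 3′ kit (V3 chemistry) and, per the labels, the authors counted reads with Cell Ranger 3.1 on mm10; Seurat 5.0 is also named in the submitters' processing notes. The deposited matrices hold raw UMI counts per gene and cell for 5 libraries, without normalization. The deposited barcodes are fewer than the cells the study describes. Cells with at least 200 genes and under 20% mitochondrial UMIs were kept, and no doublet caller was run. Counts were summed per library and per marker-gated class and divided by the UMI total (CPM). Gates used summed markers per 10000 UMIs. Genes entered a comparison with at least 200 UMIs over both sides and 20 CPM on one, and calls used log2 of CPM with 1 added, with a limit of 1. Log2 ratios have exact conditional 95% intervals, CPM exact Poisson intervals and shares exact Clopper-Pearson intervals (SciPy 1.17.1). The calculation was tested on simulated data. The genes named are those past 1, those with the largest differences and those of each role. The members, gene lists and markers were chosen with earlier results of these data known. Promoters came from RefSeq tables. Alternatives covered scaling, filters, gates, cell depth and class mix. UMIs remove amplification copies, and depth limits low genes.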

Additional observations from a re-analysis of the deposited data

Results flagged for a closer look

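In 8 results the D2 and D7 differences from the naive library ran in opposite directions. Each was at least 0.3 log2 units, with a counting interval that excludes 0. Opposite differences under that limit were not listed, such as Gapdh in whole marrow at -0.28 and 0.45. The share of all genes that met these limits is not given. None of these differences between days was tested, since each rests on 1 library per day and both days share the naive library. In whole marrow, Hk1 had a log2 ratio of 0.32 at D2 and -0.48 at D7, and Pfkp had 0.84 and -0.31. In cycling preNeu/proNeu cells, Hk1 had 0.40 at D2 and -0.31 at D7. In immature neutrophils, G6pdx had 0.48 at D2 and -0.51 at D7. In mature neutrophils, G6pdx had 0.78 and -0.31, Slc2a3 0.41 and -0.33, Slc16a3 0.997 and -0.36, and Gapdh, in the other order, -0.36 and 0.33. The median over all genes in mature neutrophils was 0.35 at D2 and -0.13 at D7, so the direction of the median itself differed between the days. Median UMIs per mature neutrophil were 2463 at D2 and 4317 at D7.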

How the results depend on the processing

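No paired analysis was possible because each condition had 1 library and no replicate numbers are shared. Across the alternatives 48 values were classed as within their counting interval or near their count, 26 as moved and 4 as turned in direction. The count of 4 does not take in every change of sign among the values below. Values are log2 ratios of the members' sum. Scaling by the median of gene ratios gave -0.10 at D2 in whole marrow (0.07 as measured), 1.03 at D7 (0.43), 0.073 in sorted cells (0.10), -0.029 and 0.20 in D2 and D7 monocytes (0.03 and 0.13), and -0.25 and 0.34 in D2 and D7 mature neutrophils (0.11 and 0.21). Taking the mean of the cells' CPM gave -0.021 at D2 and -0.11 and 0.17 in D2 and D7 monocytes. Without Gapdh the sum was 0.14 at D2, 0.063 in sorted cells, 0.061 in D2 monocytes, and 0.20 and 0.18 in D2 and D7 mature neutrophils. Without cells above the 98th percentile of UMIs it was 0.016 at D2, 0.41 at D7 and -0.10 in D2 monocytes. With the naive mix of classes it was 0.092 at D2 and 0.18 at D7. With mitochondrial, hemoglobin and immunoglobulin genes left out of the total, D7 was 0.38. A stricter gate gave 0.18 in D7 mature neutrophils. Without Pgls, chosen after seeing the data, the sum was 0.16 at D2, 0.55 at D7 and 0.059 in D2 pre-B cells (-0.39 as measured). The number of members past 1 was 5 without the filter at D2 (3 as measured). At D7 it was 16 under median scaling, 15 of them higher, 2 with the left-out genes and 4 without the filter (1 as measured). The shares of all genes under these settings are not given, so these counts are no result about the members. The cause of these changes was not tested beyond what each setting leaves out. The D2 sums of whole marrow, monocytes and mature neutrophils thus changed sign under at least 1 setting. Genes under about 20 CPM rest on few UMIs in the smaller gates, and no value here has a replicate.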
